A study of Mus musculus with 12 samples.

Results

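In adult gastrocnemius muscle, 44 genes had next to no RNA in mice whose DUX4 transgene was absent or not turned around by Cre. These genes had at least 10 counts in every mouse of the moderate model. Their mean level in the severe model was no higher than in the moderate model. They were found among the 37748 genes of the deposited table by 3 limits on rounded counts. The sum over the 6 control and FLExD mice was at most 3, every moderate mouse had at least 10 counts, and the mean CPM (counts per 1000000 counts of the library) was at least as high in the moderate as in the severe mice. Of all genes, 16669 met the first limit and 82 met the first and second. The third limit divided these 82 into the 44 described here and 38 with the higher mean in the severe model. Because the genes were chosen by their values in all 4 groups, their levels and ratios are given as descriptions without a test.

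Each group held 3 mice, 1 RNA-seq library per mouse. Control mice carried ACTA1-MCM/+, a tamoxifen-inducible MerCreMer recombinase under the skeletal muscle actin promoter. FLExD mice carried FLExDUX4/+ alone (described in the labels as mild pathology). This DUX4 transgene at the Rosa26 locus is transcribed from the Rosa26 promoter after Cre has turned it around. The study describes low, leaky DUX4-fl expression in FLExD mice, but detected no DUX4-FL protein in their skeletal muscles. The labels give no tamoxifen (TMX) for control or FLExD mice, so a response to TMX itself has no control here. Moderate and severe mice carried both transgenes and received TMX at 5 mg/kg in 1 injection or at 10 mg/kg in 2 injections, which differ in dose and in number. Muscles were taken on day 9 after TMX, at 13 weeks of age. Recombination was mosaic, so a library averages fibers with and without DUX4-FL together with the other cells of the muscle. The bi-transgenic mice without TMX were not analysed here.

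DUX4-FL, the full-length DUX4 protein, is a double homeobox transcription factor that is normally made in the testis and the early embryo and is silent in adult muscle. When it is made in muscle in facioscapulohumeral muscular dystrophy (FSHD), it binds DNA and turns on genes that muscle does not normally use. A gene that is silent beforehand is a sensitive readout of such an event, because any transcript stands out against an empty background, but in bulk tissue fewer expressing cells and less RNA per cell cannot be told apart.

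The tissue matched its label. DUX4 itself, a human sequence, was not analysed here, and a readout gene stands in for it. The 6 muscle fiber markers (Acta1, Ckm, Myh4, Myh1, Mb and Tnnt3) summed to between 85626 and 116480 CPM in control mice and between 78291 and 105849 CPM in FLExD mice, against 59806 to 67870 CPM in moderate and 14643 to 24906 CPM in severe mice. Wfdc3, a DUX4-FL readout in mouse muscle (identifier ENSMUSG00000076434), had 72.0 to 104 CPM in moderate and 117 to 196 CPM in severe mice, and at most 0.293 CPM in any mouse of the other groups. Library totals lay between 23796675 and 29136154 counts, and the severe libraries were the smallest.

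The off state was close to empty. Of the 44 genes, 21 had no count in any of the 6 control and FLExD mice, 10 had 1 count in all, 8 had 2 and 5 had 3, and no single library held more than 3 counts of any of them. All 44 genes together had 0, 9 and 11 counts in the 3 control mice and 4, 9 and 8 in the 3 FLExD mice, against 4201, 3148 and 3932 in the moderate and 1304, 2320 and 2318 in the severe mice. The rule set the low sums of the control and FLExD mice. In the severe mice every gene had at least 1 count in each mouse and 31 had at least 10 in each, while 4 genes stayed under 10 in all of the 3 mice. Intervals and limits given for these counts cover counting error only.

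**Figure D1:**
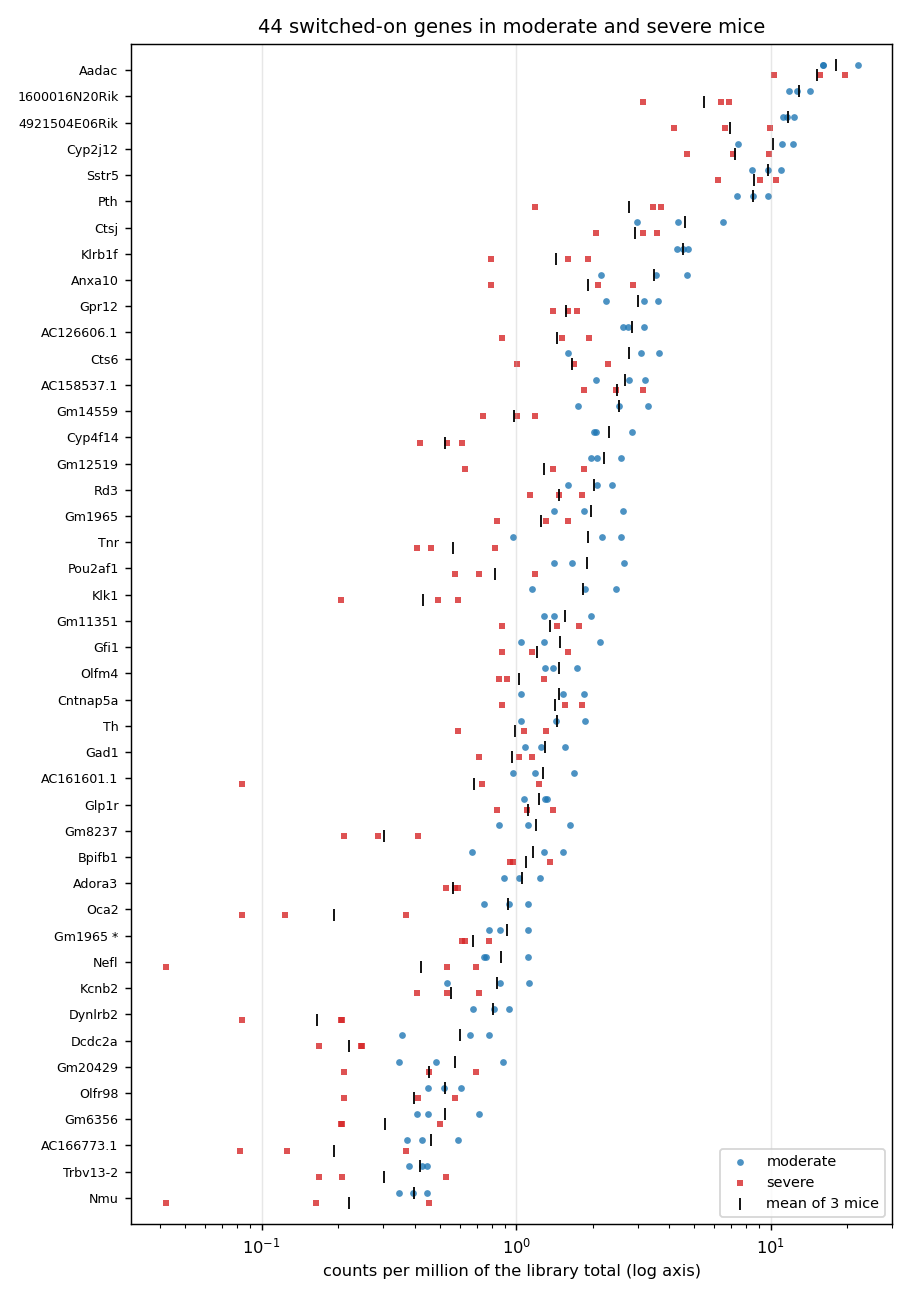
Level of each of the 44 genes in each moderate mouse (blue circles) and each severe mouse (red squares), in CPM on a log axis, with black ticks for the mean of 3 mice. Genes are ordered by their moderate mean, from Aadac at 18.0 CPM to Nmu at 0.395 CPM, and the asterisk marks the second identifier named Gm1965.

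The levels ranged from a moderate mean of 18.0 CPM down to 0.395 CPM, with a median of 1.52 CPM, and 12 genes were under 1 CPM. The 10 highest held 64.6% of all counts of the 44 genes in moderate mice. On the TPM scale, which takes transcript length into account and on which genes can be compared with each other, Pth led with a moderate mean of 16.6 TPM, followed by Aadac (15.9), 4921504E06Rik (8.07), 1600016N20Rik (7.26) and Cyp2j12 (7.23). The lowest, AC166773.1, had 0.260 TPM. The genes were thus present at low to intermediate abundance, and their coefficient of variation over the 3 moderate mice had a median of 23.2% (range 4.97% to 49.5%), against 36.2% (5.27% to 96.1%) over the 3 severe mice.

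The highest gene in CPM was an enzyme. Aadac, an esterase of the endoplasmic reticulum in liver and intestine, had counts of 618, 433 and 462 in the moderate and 244, 378 and 478 in the severe mice. A single count was found in 1 of the 3 control mice, and the ratio of the moderate to the control group was 1542, with a 95% exact counting interval from 276 to 60931. Its moderate and severe levels overlapped, at 18.0 ± 3.46 and 15.1 ± 4.66 CPM (SD, n = 3). Cyp2j12, a cytochrome P450 of a family that oxidizes fatty acids, had 312, 199 and 354 counts in the moderate and 112, 239 and 173 in the severe mice. With no count in the control mice, its level in moderate mice was at least 294-fold higher, taking 3 counts over the control group as the floor. A second P450, Cyp4f14, had 57, 55 and 82 counts in the moderate mice and 10, 13 and 15 in the severe mice, which did not overlap. The mean of Cyp4f14 in severe mice was 22.7% of that in moderate mice on the CPM scale.

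Proteases formed a second group. Ctsj and Cts6 encode placental cathepsins, cysteine proteases whose known site of expression is the rodent placenta. Ctsj had 182, 80 and 125 counts in the moderate and 49, 87 and 77 in the severe mice, and Cts6 had 102, 43 and 89 against 24, 56 and 41. Neither had a count in any control or FLExD mouse, which makes the moderate level at least 131-fold higher than control for Ctsj and at least 79.5-fold for Cts6. In both genes, mouse 1236 was the highest and mouse 1308 the lowest of the moderate mice, and mouse 1047 the lowest of the severe mice. Klk1, tissue kallikrein, which releases kinins, was present at 69, 31 and 54 counts in the moderate mice and at 14, 12 and 5 in the severe mice, with 3 counts in a single control mouse. Every moderate mouse was above every severe mouse in Klk1, and the severe mean was 23.5% of the moderate mean in CPM.

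Hormones and receptors followed. Pth, parathyroid hormone, which raises blood calcium and is normally made in the parathyroid glands, had 206, 228 and 282 counts in the moderate and 28, 90 and 84 in the severe mice. No control or FLExD mouse had a count of Pth, so that its moderate level was at least 243-fold higher than in controls. Its mean was 8.53 ± 1.20 CPM in moderate and 2.77 ± 1.39 CPM in severe mice (SD, n = 3), with no overlap between them. Sstr5, a somatostatin receptor, overlapped between the models, with 309, 226 and 283 counts in the moderate and 148, 255 and 222 in the severe mice. The severe mean of Sstr5 was 88.3% of the moderate mean in CPM, a difference within the spread of either group. Gpr12, a constitutively active receptor of the brain and oocyte, had 89, 97 and 65 counts against 33, 42 and 39, without overlap in CPM. Glp1r, the receptor of the incretin hormone GLP-1, had 37, 35 and 31 counts in the moderate and 20, 34 and 27 in the severe mice, a severe mean at 90.5% of the moderate one. Nmu, which encodes the neuropeptide neuromedin U, was the lowest gene of the set at 11, 12 and 10 counts in the moderate mice and 1, 11 and 4 in the severe mice.

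Several genes are normally read in the nervous system. Th and Gad1 encode the enzymes that make catecholamines and GABA, and they had 28 to 54 and 29 to 45 counts per moderate mouse, against 14 to 32 and 17 to 28 per severe mouse. Tnr, tenascin-R of the brain matrix, had 61, 26 and 75 counts in the moderate mice and 11, 20 and 10 in the severe mice, which did not overlap in CPM. Nefl, the light neurofilament chain, had 31, 20 and 22 counts against 1, 13 and 17, and Cntnap5a, a neuronal adhesion molecule, had 52, 28 and 44 against 21, 44 and 38. The 2 genes differed in their severe share, with a severe mean at 48.7% of the moderate mean for Nefl and at 96.1% for Cntnap5a, the highest of all 44. The 5 Schwann cell markers, which would come with more nerve in a sample, summed to 36.8 to 73.5 CPM in moderate and 53.3 to 68.4 CPM in severe mice, against 18.6 to 32.8 CPM in controls and up to 52.0 CPM in FLExD mice. With library sizes adjusted by TMM factors (trimmed mean of M-values, which centre most genes on no change), edgeR called 1 of these 5 markers lower in moderate and 3 lower in severe mice than in controls. Over all genes, 17.0% were called lower than in controls in moderate and 27.9% in severe mice. The part of nerve in the counts of the neuronal genes was not tested.

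Genes of blood cells were also present. Klrb1f, a lectin-like receptor gene of natural killer (NK) cells, had 120, 127 and 131 counts in the moderate and 19, 39 and 47 in the severe mice, with none in the other 6 mice. It varied least of the 44 genes among the moderate mice, at 4.51 ± 0.224 CPM (SD, n = 3), and did not overlap with the severe mice at 1.44 ± 0.579 CPM. Pou2af1, a coactivator of antibody genes in B cells, had 74, 38 and 48 counts against 17, 29 and 14. Gfi1, a repressor of blood progenitors, had 60, 28 and 37 against 21, 28 and 39, and Trbv13-2, a variable segment of the T cell receptor, 12, 12 and 11 against 4, 5 and 13. The summed CPM of NK and T cell markers was higher in severe than in moderate mice. The 7 NK cell markers summed to 0.146 to 0.378 CPM in controls, 1.19 to 2.50 CPM in moderate and 3.83 to 5.38 CPM in severe mice, and the 7 T cell markers to 0.841 to 1.44, 0.968 to 1.66 and 5.06 to 7.28 CPM, in the same order. Most of the T cell sum in severe mice was Cd4, which macrophages can also express, with a mean of 0.485 CPM in moderate and 4.73 CPM in severe mice. Cd3e, which defines T cells, had 0.0945 and 0.124 CPM, and Cd28 was called lower than in controls in both models. Ncr1, which defines NK cells, had 3, 1 and 5 counts in the moderate mice, far fewer than Klrb1f in the same libraries. None of the marker genes of these 2 lists was at 0 in all 12 mice. Between severe and moderate mice, edgeR called 17.6% of all genes higher, with 1 of the 3 tested T cell markers, Cd4, and 1 of the 4 tested NK cell markers. The 8 macrophage markers were all called higher in severe than in moderate mice and summed to 432 to 594 CPM in moderate and 1640 to 1916 CPM in severe mice. The part of blood cells in the counts of the 4 genes was not tested.

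The remaining protein-coding genes included 1600016N20Rik (Lmntd2 in the annotation), which encodes a protein with a lamin tail domain. It had 400, 342 and 342 counts in the moderate and 75, 167 and 156 in the severe mice, a severe mean at 42.3% of the moderate mean. 4921504E06Rik, an uncharacterised cDNA gene, had 349, 313 and 323 counts against 99, 161 and 244, again without overlap in CPM. Anxa10, an annexin of the stomach, had 132, 58 and 102 against 19, 70 and 51, with overlap. Low in the list were Dynlrb2 and Dcdc2a, both linked to cilia and microtubules, and Oca2 of the melanosome, with between 2 and 9 counts per severe mouse. Dynlrb2 had the lowest severe share, 20.3% of its moderate mean in CPM. Olfm4, a secreted glycoprotein of intestinal crypts, had 39, 35 and 50 counts in the moderate and 22, 31 and 21 in the severe mice, and Bpifb1, a secreted protein of the airway lining, had 43, 18 and 37 against 23, 33 and 23. Rd3, a photoreceptor gene, and an identifier named Kcnb2, after a potassium channel, had 45 to 64 and 15 to 30 counts per moderate mouse. The predicted genes Gm8237 and Gm6356 had 23 to 47 and 11 to 20, and the severe counts of all 4 were between 5 and 44.

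The genes were not confined to coding sequence. GENCODE M21 held 42 of the 44 identifiers on 13 chromosomes, and 32 of them were protein-coding (76.2%). The share was 58.8% over all genes of the table from which they were chosen, 86.8% over the genes tested and 86.8% over the 38 genes that were higher in the severe model. The noncoding entries were 8 long noncoding transcripts, the pseudogene Gm14559 and the T cell receptor segment. AC126606.1 (Platr23 in the annotation), an intergenic RNA with 89, 74 and 76 counts in the moderate and 21, 47 and 37 in the severe mice, lay 0.251 kb from Zfp281. The noncoding genes Gm12519 and Gm11351 had 56 to 72 and 37 to 55 counts per moderate mouse, against 15 to 45 and 21 to 43 per severe mouse. AC158537.1 (B230110C06Rik) had 90, 55 and 80 counts against 44, 60 and 77, so that its severe mean was 93.1% of the moderate mean. It shares 415 exonic bases with Lrrc3b on the opposite strand, whose own counts were 7 to 8 in controls and 139 to 171 in moderate mice, and the deposited counts do not say which strand a read came from.

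Other members shared exonic bases with another gene, too. On the opposite strand, Nefl shared 32.8% of its exonic bases with Nefm, Rd3 27.3% with WI1-2736D10.2 and AC161601.1 44.4% with Ralyl, and the overlaps of 1600016N20Rik, Gfi1, Nmu and, on the same strand, Olfm4 covered between 3.01% and 6.64% of theirs. Olfr98, an odorant receptor gene on chromosome 17, and the transcript Gm20429 on the other strand overlap over 354 exonic bases, which is 34.1% of Olfr98. Their moderate counts were 17, 14 and 13 for Olfr98 and 25, 13 and 10 for Gm20429, and reads in the overlap cannot be assigned to either. The identifier named Adora3 among the 44 (ENSMUSG00000074344, Tmigd3 in the annotation) shares 33.9% of its exons with the identifier of Adora3 itself and had 29, 24 and 36 counts in moderate mice. Gm1965 stands for 2 identifiers, with 52, 38 and 76 and with 31, 21 and 25 moderate counts. In 16 of the 44 genes, Cyp2j12 among them, a moderate count was not a whole number (by more than 0.005), which arises when a read fits several transcripts and is divided between them. Copies of the same sequence elsewhere could therefore hold some of their reads.

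The only members within 200 kb of each other, besides the overlapping Olfr98 and Gm20429, were Ctsj and Cts6. Ctsj lies on chromosome 13 from 61000179 to 61005959 and Cts6 from 61195132 to 61203410, both on the minus strand with 189 kb between them in the cluster of placental cathepsins. Their longest transcripts were identical at 77.3% of the aligned bases. The sequence in front of the start sites is given here for the genes that lead the list and have a single RefSeq promoter entry, and for Cts6 beside its neighbour, promoters being where transcription factors act. Aadac was read at chr3:60031538-60031760, Cyp2j12 at chr4:96141153-96141402, Pth at chr7:113388574-113388823, Ctsj at chr13:61005960-61006175, Klrb1f at chr6:129045651-129045900, Anxa10 at chr8:62123194-62123443 and Cts6 at chr13:61203411-61203642 (RefSeq, GRCm38.p6, plus strand for Aadac and Klrb1f and minus strand for the others). Each is written 5′ to 3′ on the strand of the gene, from 250 bases before the start and without bases in an annotated exon, and capitals mark the homeodomain core TAATC on either strand, where GATTA is its reverse complement. The window of Aadac lies inside the longer gene of GENCODE M21.
Aadac: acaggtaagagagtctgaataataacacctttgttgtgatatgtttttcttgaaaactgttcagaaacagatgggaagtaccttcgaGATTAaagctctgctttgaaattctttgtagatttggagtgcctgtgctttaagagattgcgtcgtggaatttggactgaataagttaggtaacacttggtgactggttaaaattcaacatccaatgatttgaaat
Cyp2j12: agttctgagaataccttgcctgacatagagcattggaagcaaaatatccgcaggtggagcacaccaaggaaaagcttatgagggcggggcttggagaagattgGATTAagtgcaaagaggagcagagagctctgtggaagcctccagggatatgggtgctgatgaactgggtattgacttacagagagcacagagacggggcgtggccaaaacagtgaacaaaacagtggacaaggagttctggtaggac
Pth: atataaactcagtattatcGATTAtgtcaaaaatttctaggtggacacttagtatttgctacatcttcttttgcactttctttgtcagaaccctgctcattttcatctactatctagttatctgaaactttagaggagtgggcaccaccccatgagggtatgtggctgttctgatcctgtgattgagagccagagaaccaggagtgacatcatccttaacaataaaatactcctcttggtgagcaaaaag
Ctsj: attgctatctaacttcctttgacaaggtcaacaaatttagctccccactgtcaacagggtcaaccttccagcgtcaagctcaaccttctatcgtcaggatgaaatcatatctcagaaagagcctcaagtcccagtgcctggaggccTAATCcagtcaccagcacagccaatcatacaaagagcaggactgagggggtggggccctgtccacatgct
Klrb1f: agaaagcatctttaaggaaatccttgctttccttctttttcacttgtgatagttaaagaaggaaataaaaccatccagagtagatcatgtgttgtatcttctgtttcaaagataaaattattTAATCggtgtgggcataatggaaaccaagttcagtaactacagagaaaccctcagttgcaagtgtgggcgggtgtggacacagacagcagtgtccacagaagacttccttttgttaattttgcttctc
Anxa10: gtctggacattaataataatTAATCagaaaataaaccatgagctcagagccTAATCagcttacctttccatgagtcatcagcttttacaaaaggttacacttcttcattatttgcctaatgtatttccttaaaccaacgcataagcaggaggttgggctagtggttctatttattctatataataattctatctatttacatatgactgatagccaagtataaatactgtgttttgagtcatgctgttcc
Cts6: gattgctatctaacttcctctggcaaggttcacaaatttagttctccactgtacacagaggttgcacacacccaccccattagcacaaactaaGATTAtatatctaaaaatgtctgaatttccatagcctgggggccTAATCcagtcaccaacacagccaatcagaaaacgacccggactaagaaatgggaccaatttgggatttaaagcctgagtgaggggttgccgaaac

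All 7 sequences hold the core, Anxa10 and Cts6 in 2 places, while it was in neither of the 2 RefSeq promoters of 1600016N20Rik or of Gpr12. In Ctsj and Cts6 it stands in a like place, with its first base 104 and 113 bases before the start, and the same 18 bases, attgctatctaacttcct, stand at the far end of both promoters. Another shared stretch of the same length, ggccTAATCcagtcacca, holds the core in both. After alignment, 68.8% of the 250 bases were identical between Ctsj and Cts6, and the same share between Ctsj and Ctsr, which had no count in any mouse. The core was present before cathepsin genes that were not switched on, too. Of the 8 placental cathepsin promoters, that of Cts7 alone lacked it, while Ctsm, Ctsr and Cts3, which carry it 107, 120 and 110 bases before the start, had no count in any mouse. In the Cyp2j cluster it was present before Cyp2j12 and Cyp2j5 and not in the single promoters of Cyp2j6, Cyp2j8, Cyp2j9 and Cyp2j11.

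Over the whole set, 30 gene symbols had at least 1 RefSeq promoter of 300 bases (250 before to 50 after the start), 40 promoters in all. The core TAATC was found on either strand in 11 of these 40 promoters (27.5%), against 22.0% of all 32851 promoters in the table. By gene it was in 10 of 30 (33.3%), against 24.6% of all genes with a promoter in the table, 20.7% of the genes higher in the severe model and 18.6% of all genes tested. The longer pattern TAANNNAATCA, which covers the sequence that DUX4 is known to bind, was in 0 of the 40 promoters and in 1.03% of all promoters. Its second part, AATCA, which shares letters with the core, was in 15 of 40 (37.5%) against 37.0% of all, the TATA box TATAAA in 3 (7.50%) against 13.6%, and the E-box CANNTG of muscle regulators in 32 (80.0%) against 72.3%. These are descriptions of letters in a window and not of binding.

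The families to which the leading genes belong were switched on in part. On a list of 16 placental cathepsins and lactogens, 11 genes had no count in any of the 12 mice. Only Ctsj and Cts6, which the rule chose for their moderate counts, passed the filter on low counts. Ctsq, the nearest coding neighbour of Ctsj, had 4, 3 and 1 counts in moderate mice. Of the 7 genes of the Cyp2j cluster found in the table, 4 were tested in edgeR's quasi-likelihood test with Benjamini-Hochberg adjustment. Cyp2j12 was the only gene called higher in moderate mice than in controls, where 24.4% of all genes were called higher and 17.0% lower. The rule had fixed the call of Cyp2j12. Cyp2j13, 21.8 kb from Cyp2j12, was called lower, by 1.05 on the log2 scale (adjusted p = 0.00944, edgeR). It had 16, 16 and 31 counts in controls and 16, 13 and 16 in moderate mice. The call of Cyp2j13 was lost with library size alone in place of TMM factors.

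**Figure D2:**
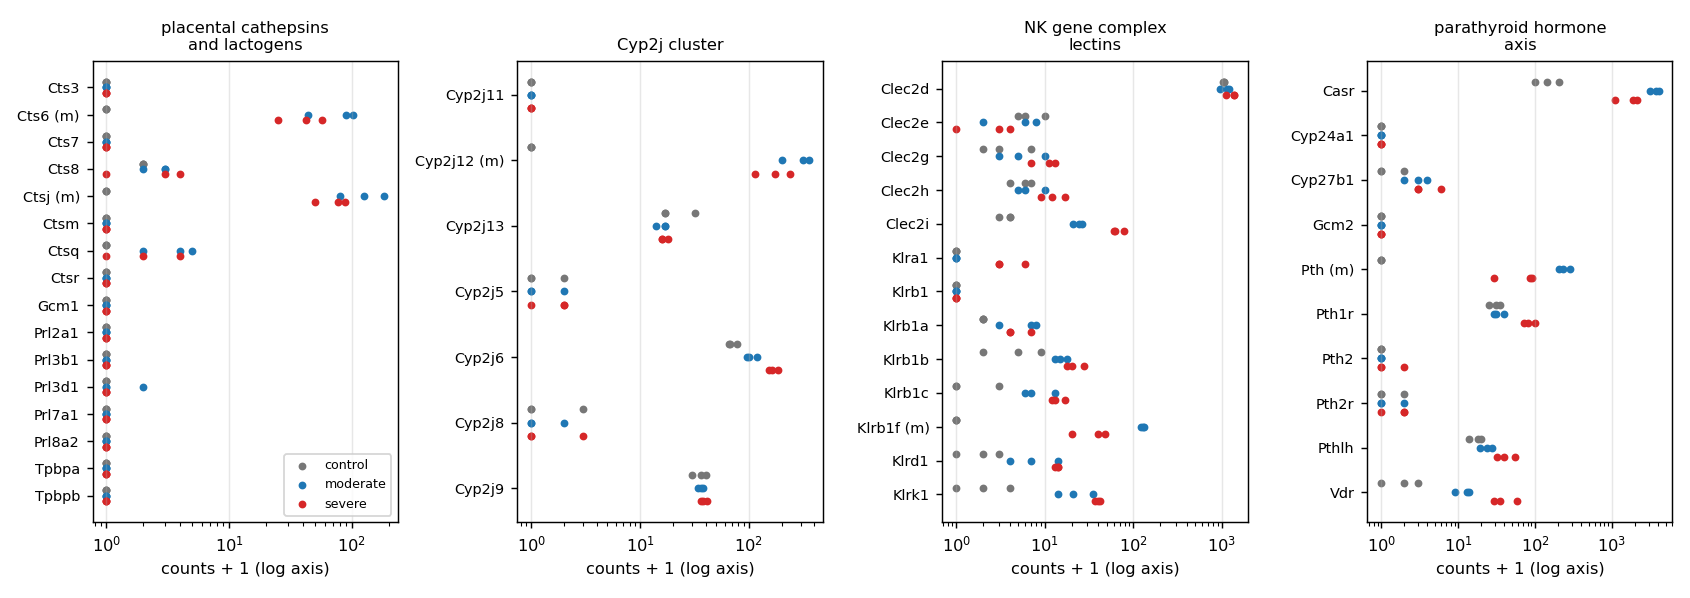
Counts plus 1 on a log axis in each control (grey), moderate (blue) and severe (red) mouse for the genes of 4 lists found in the table, where (m) marks the genes of the set described here. Single genes stand far to the right of relatives that stay at 0, such as Ctsj and Cts6 among the placental genes. The rule chose the marked genes by their counts in these groups.

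Of the 13 lectin genes of the NK gene complex found in the table, 8 were tested, and 5 were called higher and 1 lower in moderate mice than in controls, where 24.4% of all genes were called higher and 17.0% lower. The higher calls include Klrb1f, which the rule chose for it, and Klrk1 and Klrb1c, which are also among the NK cell markers above. The median log2 fold change of the 8 genes was 2.33, against 0.04 for all genes tested. The lower call, of Clec2d, was lost with library size alone. Klrb1f was the only one of the 8 called lower in the severe than in the moderate mice. Clec2i, a ligand gene of the same complex, was called higher in that comparison, by 1.04 on the log2 scale (adjusted p = 0.00230, edgeR), with 20, 25 and 23 counts in moderate and 77, 59 and 61 in severe mice. Its counts in controls were 2, 3 and 3.

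In the parathyroid hormone axis, 5 of 10 genes were tested and 3 were called higher in moderate mice, where 24.4% of all genes were. The call of Pth was fixed by the rule, and the others were Casr, the calcium-sensing receptor that restrains Pth release in the parathyroid, and Vdr, the vitamin D receptor. Casr had 141, 201 and 100 counts in controls, 260, 293 and 363 in FLExD, 3766, 3108 and 4037 in moderate and 1099, 2121 and 1890 in severe mice. It increased by 4.04 ± 0.31 (SE) on the log2 scale from control to moderate mice (adjusted p = 1.0e-06) and was lower in severe than in moderate mice by a log2 fold change of -1.57 ± 0.27 (adjusted p = 5.8e-04, edgeR with Benjamini-Hochberg adjustment). Gcm2, the factor that defines parathyroid cells, had no count in any of the 12 mice. The PTH receptor gene Pth1r was not called in the moderate mice, with 34, 24 and 30 counts in controls and 39, 28 and 30 in moderate mice.

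The lists for the cleavage embryo and the germ line, where DUX4 and its mouse relative are normally active, shared no gene with the set. Of 19 two-cell-stage embryo genes found in the table, 17 had at most 3 counts over all 12 mice, Zscan4c and Zfp352 among those with none. Of 20 germ line genes, 4 were tested, and Tex11, a meiosis gene, was called higher in moderate mice, where 24.4% of all genes were. It had 85, 32 and 73 counts against 0 in every control mouse. Piwil2, a germ line Argonaute gene, was called lower (log2 fold change -0.95, adjusted p = 0.0310, edgeR), where 17.0% of all genes were. That call was lost with library size alone. In severe mice, Tex11 and Tex14 were called higher and Dazl lower than in controls, where 32.9% of all genes were higher and 27.9% lower. Tex11 belongs to the 38 switched-on genes with the higher severe mean. By contrast all of the 6 DUX4-FL readouts in mouse muscle were called higher in both models, with median log2 fold changes of 3.94 (moderate) and 3.48 (severe). Of these readouts, the study itself assayed Wfdc3 and Trim36 as DUX4-FL targets in these models. All 6 were listed with earlier results of these data known, so the count is no independent evidence of their direction. Between the models, Sord, sorbitol dehydrogenase, was the only one called lower in severe mice (log2 fold change -1.49, adjusted p = 2.1e-04) and Trim36 the only one called higher (0.58, adjusted p = 0.0366).

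Neighbouring genes, which the rule did not use, were examined next. The nearest protein-coding gene on either side of the 42 annotated genes that did not overlap them gave 81 neighbours, of which 32 were themselves at or below 3 counts in the 6 control and FLExD mice and 45 passed the filter on low counts. No limit was set on distance, and the tested neighbours lay between 0.251 kb (Zfp281) and 4420 kb (Pcdh17, called higher in moderate mice) away. In moderate mice, 22 of the 45 were called higher than in controls (48.9%), where 24.4% of all genes tested were, and 4 were called lower (8.89%), where 17.0% of all genes were. Their median log2 fold change was 0.50, against 0.04 for all genes tested. In severe mice, 21 were higher (46.7%) and 10 lower (22.2%), against 32.9% and 27.9% of all genes. Library size alone in place of TMM factors gave 33 higher and 0 lower in moderate mice, where 52.5% of all genes were higher. This comparison was added after the data were seen, and no test of the shares was made.

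Among the neighbours, Zcchc12, 103 kb from the pseudogene Gm14559, was itself switched on, with 0, 0 and 1 counts in controls, 77, 84 and 87 in moderate and 68, 93 and 63 in severe mice. It missed the set by a severe mean in CPM just above the moderate one. Dnahc8, a dynein heavy chain gene 24.5 kb from Glp1r, went from 2, 4 and 11 counts in controls to 167, 166 and 160 in moderate and 56, 68 and 91 in severe mice, a log2 fold change of 4.26 in moderate mice (adjusted p = 5.6e-07) and of -1.68 from moderate to severe (adjusted p = 1.8e-04). Dock5, an exchange factor gene 150 kb from Nefl, had 46, 69 and 45 counts in controls and 1440, 1373 and 1535 in moderate mice (log2 fold change 4.18, adjusted p = 5.9e-10). Not every neighbour was up. Aadacl2, 0.297 kb from Aadac and of the same enzyme family, reached only 10, 5 and 5 counts in moderate mice, and Herc2, 7.96 kb from Oca2, was called lower than in controls (log2 fold change -0.65, adjusted p = 2.7e-04), a call that library size alone does not make. These adjusted p-values come from edgeR's quasi-likelihood test over all genes.

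**Figure D3:**
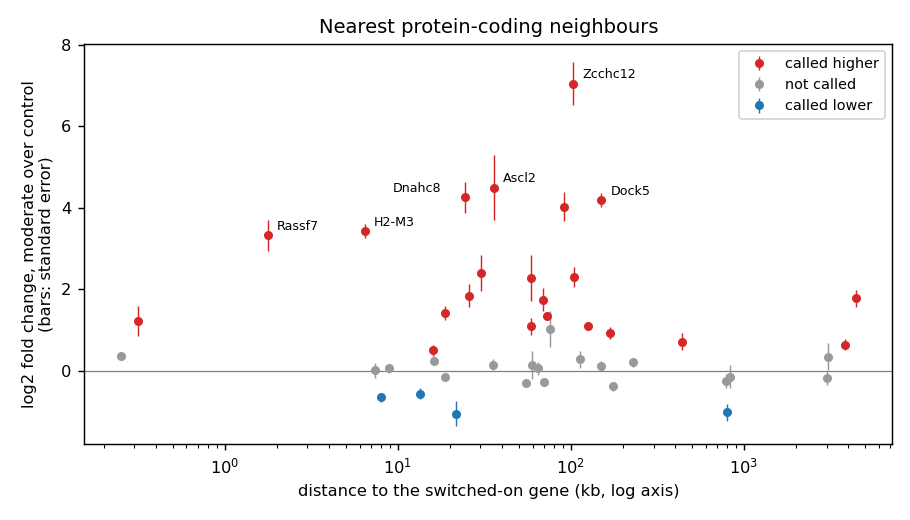
Log2 fold change between moderate and control mice, with its standard error, of the 45 tested neighbours against their distance to the switched-on gene (kb, log axis). Red marks the 22 genes called higher, blue the 4 called lower and grey the others.

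The rule set the order of the 2 models, and the distance between them varied from gene to gene. The severe mean ranged from 20.3% to 96.1% of the moderate mean in CPM, with a median of 58.6%. It was under 50% in 14 genes and at least 80% in 8. In 20 of the 44 genes every moderate mouse was above every severe mouse in CPM, and in the other 24 the groups overlapped in CPM. Over all genes tested, every moderate mouse was above every severe mouse in CPM in 7.83%. The separation depended on the scale. It held for 41 of the 44 genes on TMM-adjusted library sizes and for 2 per fiber-marker count, where 24 genes had every severe mouse above every moderate mouse. Among genes with at least 30 counts in each moderate mouse, the severe mean was nearest to the moderate mean in AC158537.1, Glp1r and Sstr5 and farthest in Cyp4f14, Klk1 and Klrb1f.

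Single mice carried part of this. Severe mouse 1047 was the lowest of the 3 severe mice in 33 of the 44 genes, with a sum over the set of 54.8 CPM against 95.5 and 94.8 CPM in the other 2. Mouse 1047 also had the lowest fiber-marker level of all libraries, 14643 CPM, and the lowest Wfdc3 of the severe mice. Among the moderate mice, mouse 1236 was the highest in 24 genes and mouse 1308 the lowest in 25. Without mouse 1047 the rule found 38 genes, and without mouse 1308 it found 55.

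In the edgeR fit, 43 of the 44 genes passed the filter on low counts, and Dcdc2a did not. All 43 were called higher in moderate mice than in controls, where 24.4% of all genes were called higher, and all but Dynlrb2 in severe mice, where the share was 32.9%. In severe against moderate mice, 36 were called lower, where 18.8% of all genes were called lower and 17.6% higher, and Cntnap5a, Bpifb1, AC161601.1, Gm20429, Olfr98, Trbv13-2 and Nmu were not called. The rule used each of these contrasts, so nothing is read from the counts. Which scale is used mattered for the last one. With library size alone 15 genes were called lower, and over all genes 92.1% of the calls between the models were then toward the severe side (9648 higher and 823 lower), against 48.4% with TMM factors (2943 and 3139). For the comparisons with control, higher calls went from 59.0% to 92.1% of all calls for moderate mice, and from 54.1% to 92.2% for severe mice. The median log2 fold change of all genes was 0.04, 0.08 and 0.02 in the 3 contrasts with TMM factors and 0.65, 1.39 and 0.72 with library size alone.

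**Figure D4:**
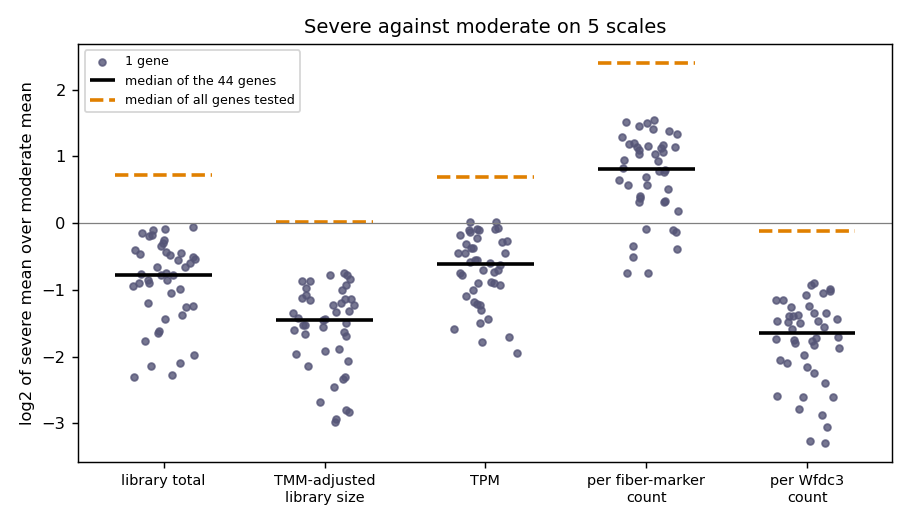
Log2 ratio of the severe to the moderate mean for each of the 44 genes (points), their median (black line) and the median of all genes tested (dashed orange line), on 5 scales. The median of the 44 genes lies between -1.65 and -0.61 on 4 scales and at 0.81 per fiber-marker count. The genes were chosen by this difference on the first scale, and a change to a scale other than TPM moves all genes nearly alike.

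The scale sets the size of the difference between the models. The genes were chosen by this difference, so the values are a description. A change of scale moves all genes nearly alike, except for TPM, which moved some genes more than others. The log2 ratio of severe to moderate of Oca2 was -2.27 per library total and -0.88 with TPM, and that of Aadac -0.25 and -0.22. Per library total, the median log2 ratio of severe to moderate was -0.77, against 0.72 for all genes. On TMM-adjusted library sizes it was -1.44 against 0.02. With TPM it was -0.61 against 0.69, and Cntnap5a and Bpifb1 were no longer lower in severe mice. Per count of Wfdc3 it was -1.65 against -0.12, and all 44 genes were lower. The absolute order of the models did not hold on 1 scale. Per fiber-marker count, 36 of the 44 genes were higher in the severe mice, with a median log2 ratio of 0.81 against 2.40 for all genes.

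**Figure D5:**
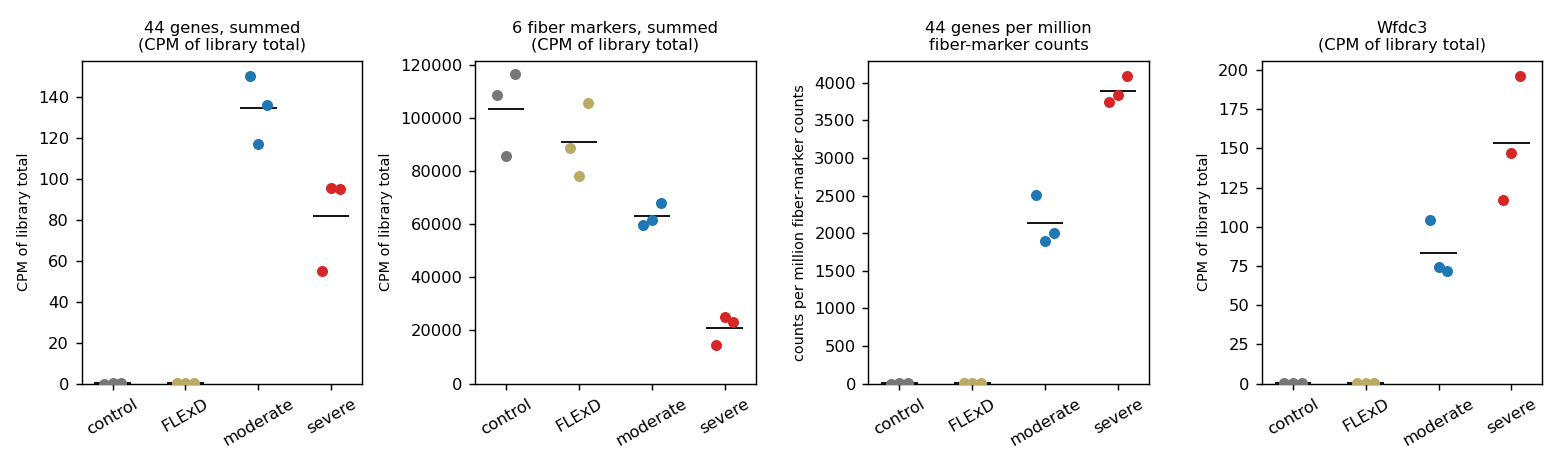
Values of each mouse by group, with a line at the group mean: the 44 genes summed, 6 fiber markers summed, the 44 genes per 1000000 fiber-marker counts, and Wfdc3. The summed genes are highest in the moderate mice (117 to 150 CPM), and per fiber-marker count in the severe mice (3742 to 4087).

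The sums by mouse show the same. All 44 genes together made 150, 117 and 136 CPM in moderate and 54.8, 95.5 and 94.8 CPM in severe mice, and per 1000000 fiber-marker counts 2505, 1897 and 2003 against 3742, 3833 and 4087. That the set peaked in the moderate model therefore held for RNA per library and not for RNA per unit of fiber RNA. For each count of Wfdc3 there were 1.44, 1.57 and 1.89 counts of the set in moderate and 0.470, 0.649 and 0.484 in severe mice, an order that follows from the rule and the higher Wfdc3 of the severe mice. The fall of fiber markers and the level of the set between the models cannot be told apart by these libraries. The 38 switched-on genes with the higher severe mean, which the rule puts on the other side, summed to 48.2 to 69.9 CPM in moderate and 148 to 159 CPM in severe mice.

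The limits of the rule fell among genes with like values. At 3 counts in control and FLExD mice, Tnr, Klk1 and Gfi1 were included, while Slc6a20a and Cntn5 with 4 and Pls1 with 5 counts were not, although Slc6a20a had 6.12 CPM in moderate mice. Dcdc2a, Gm20429 and AC166773.1 had exactly 10 counts in their lowest moderate mouse, where Glra3, Calb2 and Ralyl had 9. By the ratio of severe to moderate means, Cntnap5a (0.961), Bpifb1 (0.938) and AC158537.1 (0.931) were inside, and Tfap2c (1.00), Zcchc12 (1.04) and Gm9994 (1.22) outside. Ralyl overlaps AC161601.1, a member with 47, 26 and 34 moderate counts, over 1133 exonic bases on the opposite strand.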

How the data were processed

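Poly(A) RNA of the gastrocnemius of 12 mice, 3 in each of 4 groups taken from the labels, was sequenced as single reads of 50 bases. The authors estimated expression with RSEM 1.2.4, calling Bowtie, and mapped further reads with TopHat2 2.0.8b (mm10). They deposited expected counts for 37748 genes, not normalized, in which 31.8% to 36.2% of values per library were not whole, and TPM of the same mice. The expected counts were rounded. Some deposited TPM are above 0 where the count is 0, so TPM served for moderate and severe mice only.

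All genes were fitted together over the 4 groups with edgeR 4.0.16 (R 4.3.3), using filterByExpr, TMM factors and the robust quasi-likelihood test. Of 16679 genes tested, those with a Benjamini-Hochberg adjusted p below 0.05 and a log2 fold change of 0.5 or more in size were called. P-values set a difference between groups against the spread between mice, estimated over the 4 groups together. The code was tested on simulated data. Alternatives used DESeq2 1.42.0, limma 3.58.1 on log2(TPM + 1), other scalings, filters and limits, and leaving out each mouse.

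The members, the gene lists and the marker lists were chosen with earlier results of these data known. Members were named as the 10 highest by CPM and 5 by TPM in moderate mice, those with a related or nearby member or on a list, those at the limits of the rule, and the 3 highest and 3 lowest severe ratios among genes with at least 30 counts in each moderate mouse. Other members and the neighbours were named after their values were seen. Positions came from GENCODE M21 (GRCm38), promoters from RefSeq, and alignments were made with Biopython 1.88. The B cell marker list is not reported here.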

Additional observations from a re-analysis of the deposited data

How the results depend on the processing

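With other limits the rule found 21 genes (no count in the 6 control and FLExD mice) or 69 (at least 5 counts in each moderate mouse). It found 34 to 54 under the other changes of its limits, scale or rounding, and 38 to 55 when 1 mouse was left out. The scaling between libraries moved the calls most. With library size alone, 8764 genes were called higher and 752 lower in moderate mice, 12580 and 1070 in severe mice, and 9648 and 823 in severe against moderate mice, where 15 of the switched-on genes were lower. With limma on log2(TPM + 1), 737 genes were lower in moderate mice, 10687 higher and 987 lower in severe mice, and 8034 higher and 629 lower in severe against moderate mice, where 13 of the switched-on genes were lower. A log2 fold change of at least 1 left 2648 higher and 1172 lower in moderate mice, 2928 lower in severe mice, and 1356 and 1391 between the models. Neighbours called higher in severe mice numbered 39 with library size alone and 33 with limma, where 75.4% and 64.1% of all genes were. Over the 7 gene lists, lower calls went from 3 to 0 in moderate mice under both alternatives, and from 4 to 1 (library size) or 0 (limma) in severe mice. Between the models they went from 8 to 4 under both, and higher calls from 5 to 12 with library size alone. The cause was not tested. With 1 mouse left out, 29 to 37 switched-on genes were called lower in severe than in moderate mice, where 2572 to 3258 of all genes were. The rule set that direction for the switched-on genes. For the 10 switched-on genes highest in CPM and Cts6, the log2 fold change between the models kept its sign in each alternative fit. On TPM, Cntnap5a and Bpifb1 changed sign (0.01 each), and 36 of the 44 genes did so per fiber-marker count. No paired analysis was possible because mice carry individual numbers and none is shared between groups. Rounding up of counts midway between whole numbers and the alternatives for neighbours were chosen after seeing the data. Genes under about 10 counts per mouse rest on few reads, and 3 mice a group limit every estimate of spread.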
